A study of Arabidopsis thaliana with 6 samples.

Results

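The genes described here were near their starting transcript level when sampled 3 h into 4 °C and were at least 4-fold lower after 24 h, in both genotypes of the series. They were chosen by measured values, namely log2 changes of the array signal with every signal under 66, the floor, set to 66. A gene was taken if its change at 3 h lay between -0.5 and 0.5 and its change at 24 h was -2 or lower, each against 0 h and each in both lcbk1-2 and the wild type. Of 13356 genes measured on a probe set annotated to 1 gene, 29 met these limits. HAT2, EXPA4 and UGT71C1 belonged to the gene families set aside in the definition, which left 26. A further 20 unnamed probe sets and 1 annotated to several genes had the same pattern and are not among the 26.

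Transcripts were measured on Affymetrix ATH1 arrays, which carry short probes for most Arabidopsis genes known when the array was designed. The samples were whole Arabidopsis thaliana seedlings aged 2 weeks, grown with 2% sucrose in the medium on a cycle of 16 h light and 8 h dark. The mutant group was lcbk1-2, labelled a knock-out in the Columbia-0 background, taken at 22 °C before cold (0 h), then 3 h and 24 h into 4 °C, and the wild-type group was Columbia-0 sampled at the same points. LCBK1 encodes a long-chain base kinase of sphingolipid metabolism. Each of the 6 conditions had 1 array, so there was no replicate spread, and the series has no 3 h or 24 h sample kept at 22 °C. At 3 h, cold and time of day cannot be told apart. The 24 h samples fall at the same time of day as 0 h if the 0 h samples were taken as the cold began. At 24 h, cold and the added day of plant age cannot be told apart.

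Array medians ran from 144 to 171 signal units, with 63.6% to 66.1% of probe sets brighter than the floor. Precision is limited by the number of arrays. No probe set (0) was annotated to LCBK1, so the targeted transcript was not checked. The green-leaf marker LHCB4.2 read 26202, 20650 and 13054 at 0 h, 3 h and 24 h in lcbk1-2 and 29747, 19281 and 15026 in the wild type, and it fell at 24 h (limma, adjusted p = 0.00239). The leaf marker RCA did not pass at 24 h (-0.02, adjusted p = 0.919) and read 24500 to 32750. The root marker PYK10 read 16738 to 22106. The root hair markers were lowest at 24 h in both genotypes: EXPA7 read 219, 198 and 122 in lcbk1-2 and 168, 204 and 142 in the wild type, and EXPA18 read 306, 336 and 198 in lcbk1-2 and 341, 326 and 266 in the wild type. The part of these markers in the 24 h values below was not tested. Other markers of the leaf and root lists and all flower and seed markers were not on named probe sets. The hybridization controls, spiked into every sample, read 2.23 times the other arrays on the wild-type 0 h array and 0.858 to 1.12 times on the rest. All changes in the wild type rest on that array, and its part in them was not tested. The limits took 52 genes in lcbk1-2 alone and 56 in the wild type alone.

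Arabidopsis seedlings moved to the cold respond in waves. Transcription factors of the first hours are followed over the next day by protective proteins and by lower expression of many genes of growth, among them enzymes that build and loosen the cell wall. The wall is a network of cellulose, hemicelluloses and pectin that must be remodelled for cells to expand. Of the 26 genes, 4 carry a symbol in the annotation. GH9B13 belongs to glycosyl hydrolase family 9, whose members cut beta-glucan chains of the wall. CSLA03 is a cellulose synthase-like gene of the A group, which makes the mannan backbone of a hemicellulose. GT2 is a DNA-binding protein of the plant-specific trihelix family, and SFP1 is a sugar-porter-like membrane protein. The other 22 are given by locus only, and no function is stated for them here.

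Most genes that were much lower at 24 h had already moved at 3 h. Of 160 genes at least 4-fold lower at 24 h in both genotypes, 113 were under -0.5 at 3 h in both, 18 were outside the band in 1 genotype or in opposite ways, and 0 were above 0.5 in both. The 26 made up 16.25% of the 160. Seen from 3 h, a later decrease of this size was rare. Of 4400 genes with a signal of at least 264 at 0 h in both genotypes, the level from which a 4-fold drop can be read above the floor, 2894 were steady at 3 h. At 24 h, 2418 of these steady genes (83.6%) were within 2-fold of 0 h in both genotypes, 29 (1.00%) were at least 4-fold lower and 19 at least 4-fold higher.

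**Figure D1:**
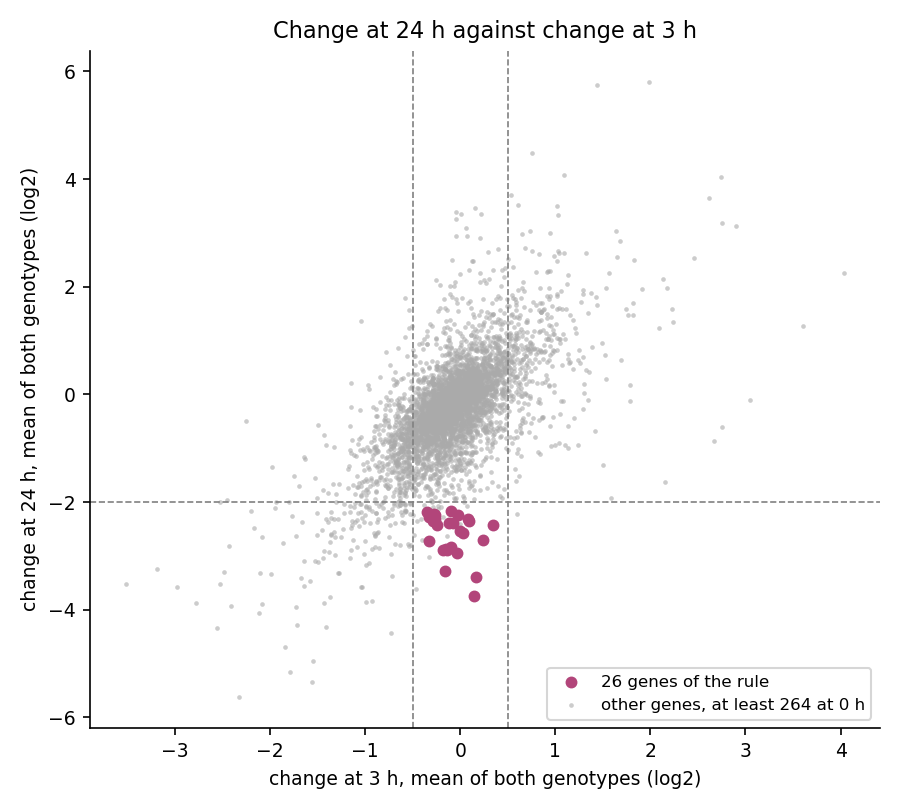
Change at 24 h (vertical axis) against change at 3 h (horizontal axis), each the mean of both genotypes in log2 of the floored signal, for 4400 genes with a signal of at least 264 at 0 h. The 26 genes (large points) sit between the vertical lines at -0.5 and 0.5 and under the horizontal line at -2, while most other strongly lowered genes lie to their left.

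The median signal of the 26 genes was 1079 at 0 h, 996 at 3 h and 181 at 24 h in lcbk1-2, and 1082, 1157 and 183 in the wild type. At 0 h the members spanned 362 to 3575 in lcbk1-2 and 327 to 2966 in the wild type, about a 10-fold range of brightness. Since probe sets differ in how strongly they bind, these signals do not rank the genes by abundance. At 24 h 23 of the 26 were still above the floor in both genotypes. GH9B13 was at the floor in the wild type, AT3G45710 in lcbk1-2 and AT1G14120 in both, so the folds of these 3 genes in those genotypes are lower bounds. In whole seedlings, fewer cells of a type and less RNA per cell cannot be told apart. The levels at 3 h and 24 h set the membership and are described without a test.

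**Figure D2:**
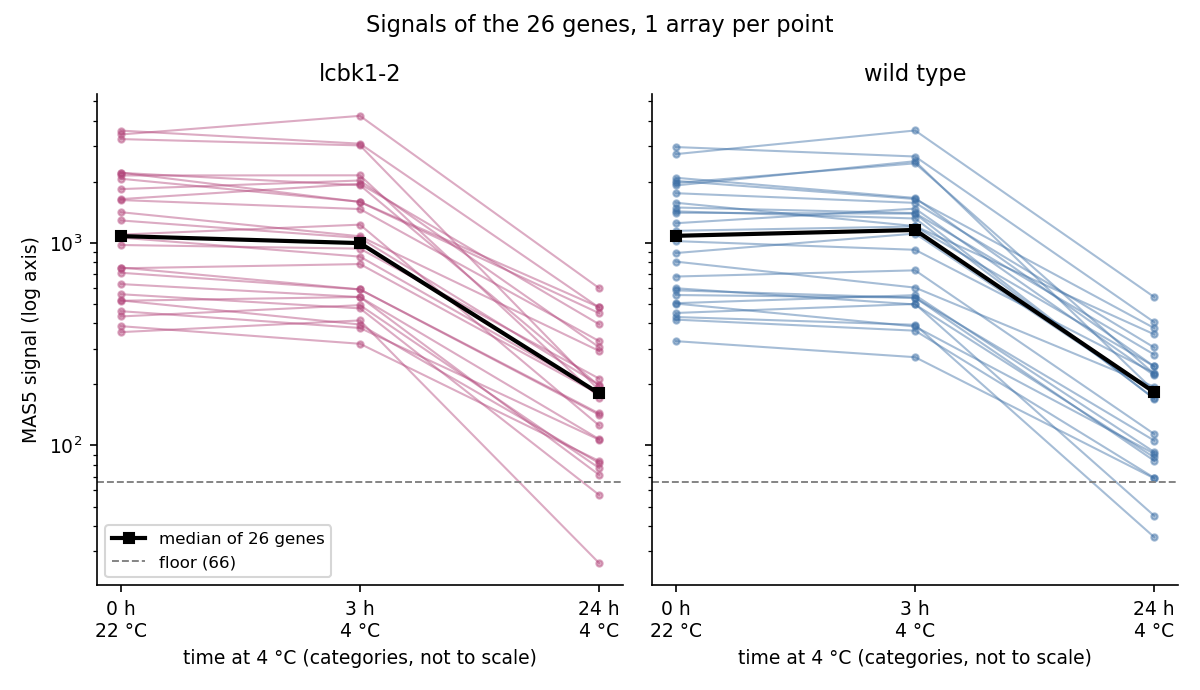
MAS5 signal (log axis) of each of the 26 genes at 0 h, 3 h and 24 h in lcbk1-2 (left) and the wild type (right), 1 array per point. The black line is the median, which was 996 at 3 h and 181 at 24 h in lcbk1-2 and 1157 and 183 in the wild type; the dashed line is the floor of 66.

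The wall enzymes come first. GH9B13 read 626, 539.9 and 71.7 at 0 h, 3 h and 24 h in lcbk1-2, and 451, 499 and 45.1 in the wild type. Its 24 h level was 8.72-fold lower than 0 h in lcbk1-2 and at least 6.83-fold lower in the wild type. Both genotypes thus stayed near their 0 h level at 3 h and were close to the floor a day into the cold. CSLA03 read 519, 395 and 82.0 in lcbk1-2 and 597, 496 and 87.4 in the wild type, 6.34-fold and 6.83-fold lower at 24 h. Its 3 h level was below 0 h in both genotypes, by log2 changes of -0.39 and -0.27, still inside the band.

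These 2 genes were set beside the other members of the cell wall list, built from words in gene names and synonyms (xyloglucan, pectin, cellulose synthase, glycosyl hydrolase 9, trichome birefringence and others). In a limma fit with genotype and time as additive terms, 28.6% of the 15654 tested features fell at 24 h and 19.3% rose (Benjamini-Hochberg adjusted p under 0.05), while 7.92% fell and 9.29% rose at 3 h. Of 39 tested cell wall genes 17 fell (43.6%) and 5 rose, with a median log2 change of -0.42 beside -0.12 over all tested genes. GH9B13 and CSLA03 are among the 17, and the choice of genes fixed their falls. The share, the median and the counts under other settings below all include both genes, and the list was not tested against all genes. At 3 h 3 of the 39 fell and 4 rose. With each array divided by its median (median scaling), 14 of 41 fell and 6 rose, where 3265 of all features fell and 4024 rose. That step raised the 24 h change of the middle feature by 0.157. With no filter on dim features 12 of 58 fell and 1 rose, where 2039 of all 22589 features fell and 1546 rose. The word match missed wall genes whose table entries lack these words, such as CSLC04 (-2.23) and ATPMEPCRD (-2.54 in lcbk1-2 and -2.75 in the wild type). Also missed were CSLD2 (0.40) and CSLC6 (-0.48), which did not pass at 24 h, and the expansin-like EXLA1 (1.77, mean of both genotypes). The missed genes thus went both ways, and they were not counted. Within the list as matched, the deepest falls at 24 h after the 2 members were those of TBL25 (-2.18, SE 0.20, adjusted p = 4.2e-04), TBL35 (-1.83), TBL36 (-1.83) and XTH16 (-1.82). TBL genes belong to the trichome birefringence-like family, which acetylates wall polysaccharides, and XTH genes encode enzymes that cut and rejoin xyloglucan. XTH16 had already fallen at 3 h (-0.58, adjusted p = 0.042). The 3 h estimate of TBL25 was lower still (-0.76) but did not pass (adjusted p = 0.0513). TBL35 (-0.375) and TBL36 (-0.117) did not pass at 3 h. The list also held genes that went the other way, the largest being XTH20 (chosen after its values were seen), which rose by 3.77 at 24 h (SE 0.13, adjusted p = 3.0e-05) after 0.12 at 3 h.

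Closer relatives were picked by symbol once the members were known. Among 7 tested GH9 genes, GH9B8 fell by 0.57 and GH9C1 by 0.46 at 24 h (calls lost under median scaling and quantile normalization). The call of GH9C1 was also lost with a floor of 33, and that of GH9B8 with no filter. GH9B18 was under the floor at 0 h in both genotypes (60.1 in lcbk1-2 and 34.0 in the wild type) and read 105 and 88.9 at 24 h, so no exact change is given, and its call as higher was lost with no filter. At 3 h GH9C2 rose by 0.86 (adjusted p = 0.026) and GH9B8 by 0.63 (adjusted p = 0.041), calls lost with a floor of 33 and with no filter. GH9C2 read 1289, 2677 and 875 at 0 h, 3 h and 24 h in lcbk1-2 and 1375, 2178 and 1097 in the wild type, highest at 3 h in both genotypes. GH9B7 stayed between 2147 and 2658 on all 6 arrays.

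Among 7 tested cellulose synthase-like genes, 4 fell at 24 h (57.1%), beside 29.0% of all tested single-gene features. The choice of genes fixed the fall of CSLA03, so the 2 shares were not compared by a test. Besides CSLA03 the genes that fell were CSLC04 (-2.23, SE 0.14, adjusted p = 1.26e-04), ATCSLC08 (-1.25, adjusted p = 7.98e-04) and CSLC5 (-0.74, a call lost with no filter). ATCSLC08 had a late course at a shallower depth, with -0.19 in lcbk1-2 and 0.02 in the wild type at 3 h. It was dim at 0 h (177 in lcbk1-2 and 173 in the wild type) and close to the floor at 24 h (74.5 and 72.9). A decrease as deep as that of the members could therefore not be read for it. The CSLC group makes the glucan backbone of xyloglucan. CSLC04 was as low as a member at 24 h but had fallen by 0.71 at 3 h (adjusted p = 0.024, a call lost with a floor of 33 and with no filter), reading 1899, 1048 and 367 in lcbk1-2 and 1871, 1262 and 438 in the wild type. CSLD2, of the group that acts in tip-growing cells, did not pass (0.40), though it rose under median scaling.

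GT2 read 755, 589 and 144 at 0 h, 3 h and 24 h in lcbk1-2 and 583, 535 and 106 in the wild type, which put 24 h 5.24-fold and 5.51-fold below 0 h. It was brighter in lcbk1-2 on each pair of arrays. Of the other two trihelix genes tested, GT-1 fell at 3 h (-0.92, adjusted p = 0.0136) and at 24 h (-1.13, adjusted p = 0.00192), reading 310.5, 179 and 132.4 in lcbk1-2 and 334, 162 and 163 in the wild type. Both calls of GT-1 were lost with no filter. PTL was unmeasurable at 0 h (under the floor in lcbk1-2 and the wild type). It read 121 and 85.9 at 3 h and 24 h in lcbk1-2 and 99.3 and 52.9 in the wild type, and it was called higher at 3 h (adjusted p = 0.025), a call lost with a floor of 33 and with no filter.

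SFP1 read 1642, 1954 and 397 in lcbk1-2 and 2019, 1644 and 379.6 in the wild type, 4.14-fold and 5.32-fold lower at 24 h. Its 3 h level lay above 0 h in lcbk1-2 and below it in the wild type. SFP2 lies 2 places along the chromosome from SFP1 in the gene table of RefSeq assembly TAIR10.1. It had nearly the same course at a lower signal, with 328, 349 and 65.3 in lcbk1-2 and 283, 281 and 87.2 in the wild type. SFP2 missed the limits because its change at 24 h in the wild type was -1.70, and its change in lcbk1-2 was -2.31 at the floor. Whether RNA of each gene binds the other's probes was not tested. Of the 3 vacuolar sugar carrier genes tested, TMT2 rose by 2.26 at 24 h (SE 0.14, adjusted p = 1.01e-04), reading 395, 425 and 1776 in lcbk1-2 and 303, 373 and 1544 in the wild type. TMT2 did not pass at 3 h (0.20, adjusted p = 0.357).

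**Figure D3:**
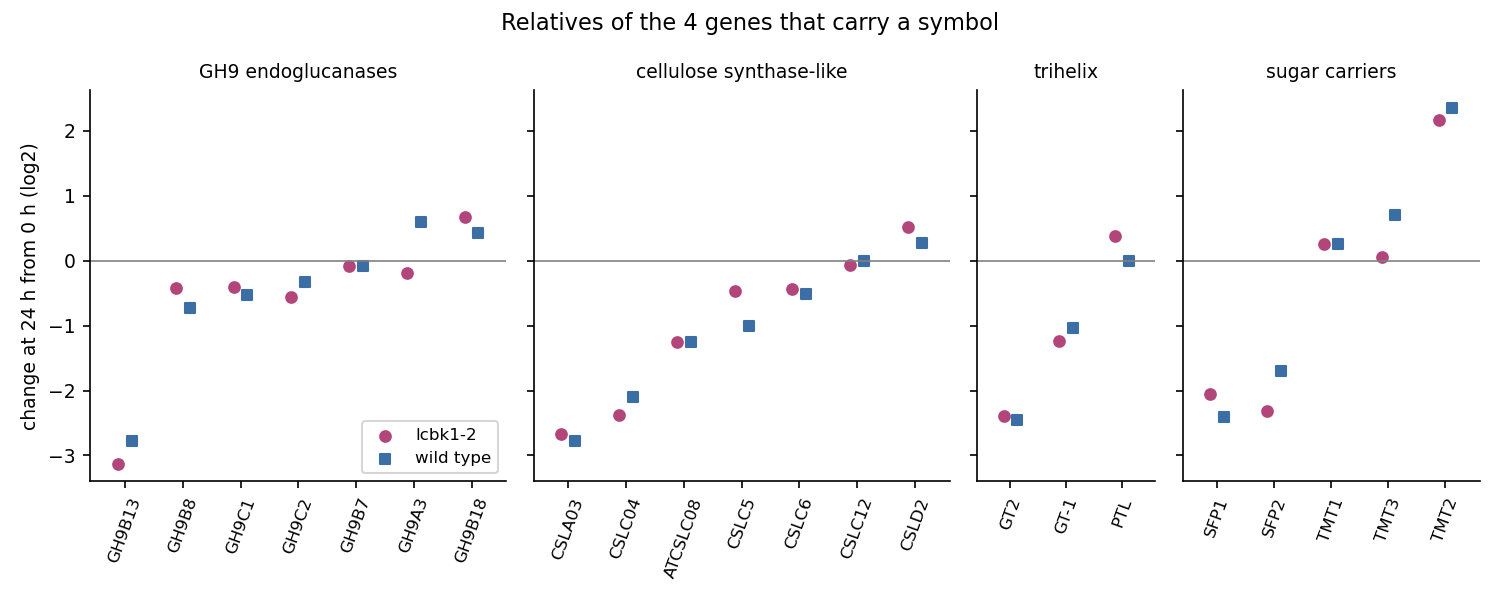
Change at 24 h from 0 h (log2 of the floored signal) in lcbk1-2 (circles) and the wild type (squares) for the tested relatives of GH9B13, CSLA03, GT2 and SFP1, 1 array per time and genotype behind each point. GH9B13, chosen for its depth, lies at -3.13 and -2.77 (the wild-type value at the floor), CSLC04 reaches -2.37 and -2.10, and TMT2 lies at 2.17 and 2.35.

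Among members known by locus, 3 were at least 8-fold lower at 24 h in both genotypes. AT4G33666 read 3247, 3022 and 187 in lcbk1-2 and 1918, 2525 and 186 in the wild type, 17.3-fold and 10.3-fold lower at 24 h. AT5G57785 read 2148, 2152 and 172 in lcbk1-2 and 1972, 2466 and 226 in the wild type, 12.5-fold and 8.74-fold lower. These 2 genes had the deepest decreases of the group, and in the wild type both stood above their 0 h level at 3 h, by 0.40 and 0.32 on the log2 scale. AT5G16030 read 2212, 1922 and 197 in lcbk1-2 and 1429, 1318 and 171 in the wild type, 11.2-fold and 8.37-fold lower.

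AT4G33660, the direct neighbour of AT4G33666 in the gene order with 0 genes between them, was also a member. It read 1097, 1228 and 126 in lcbk1-2 and 890.1, 1109.8 and 181 in the wild type. Both neighbours were deeper in lcbk1-2, by 0.83 for AT4G33660 and 0.75 for AT4G33666, the widest gaps in that direction among the 26. Of the 25 members found in the gene table, these were the only ones next to each other. Of 27 tested genes within 2 places of a member and not members themselves, 5 were at least 2-fold lower at 24 h in both genotypes and 6 at least 2-fold higher. The share of all tested features at this limit was not counted, so these numbers do not set the neighbours apart from other genes. The members lay on all 5 chromosomes, with 6 on chromosome 1, 5 on 2, 2 on 3, 6 on 4 and 6 on 5, and AT5G57785 was not in the table.

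The brightest members at 0 h included AT1G19000 and AT4G24780. AT1G19000 read 3575, 3082 and 479 at 0 h, 3 h and 24 h in lcbk1-2 and 2966, 2664 and 406 in the wild type, 7.46-fold and 7.31-fold lower, and its decreases in the genotypes differed by 0.03 on the log2 scale. AT4G24780 read 3422, 4228 and 598 in lcbk1-2 and 2738, 3580.3 and 540.2 in the wild type. It stood above 0 h at 3 h in both genotypes, by 0.31 and 0.39, and was 5.72-fold and 5.07-fold lower at 24 h. Of the 26, 5 were above their 0 h level at 3 h in both genotypes, 13 were below it in both, and 8 had opposite signs. The median change at 3 h over the 8710 tested features with at least 264 at 0 h was also below 0, at -0.09 in lcbk1-2 and -0.08 in the wild type. The signs were not counted over those features, and the band limited the members' changes.

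Next in depth at 24 h stood AT3G45710, AT2G24550, AT1G55360, AT1G14120 and AT5G24210. AT2G24550 read 1288, 1057 and 199 in lcbk1-2 and 1406, 1392 and 170.0 in the wild type, 6.47-fold and 8.27-fold lower. AT1G55360 read 1839.7, 2029 and 306 in lcbk1-2 and 2092, 1664 and 246 in the wild type, 6.02-fold and 8.52-fold lower. Both were deeper in the wild type, the reverse of the 3 deepest genes. AT3G45710 read 557, 475 and 57.1 in lcbk1-2, at least 8.45-fold lower, and 552, 536 and 84.1 in the wild type, 6.57-fold lower. AT1G14120, dim at the start with 362 and 414 at 0 h and 3 h in lcbk1-2 and 430.3 and 394 in the wild type, was under the floor at 24 h in both, at least 5.49-fold and 6.52-fold lower. AT5G24210 read 433, 492 and 77.5 in lcbk1-2 and 418, 368 and 69.3 in the wild type, so its 24 h signals lay just above the floor.

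**Figure D4:**
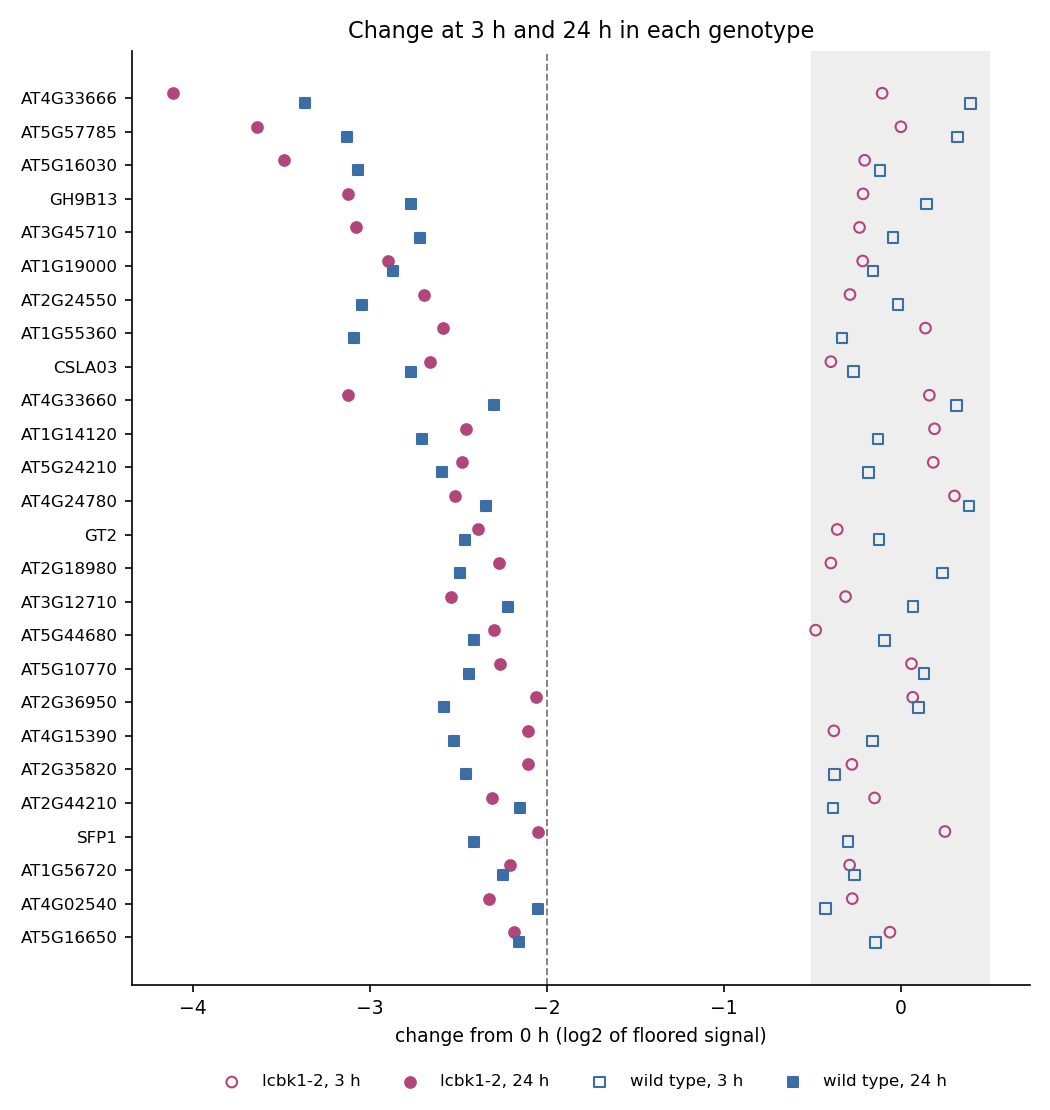
Change from 0 h (log2 of the floored signal) at 3 h (open symbols) and 24 h (filled symbols) for each of the 26 genes in lcbk1-2 (circles) and the wild type (squares), ordered by the mean change at 24 h. The grey band (-0.5 to 0.5) and the dashed line (-2) are the limits that chose the genes; AT4G33666 lies deepest at -4.12 and -3.37.

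The remaining members were 4.14-fold to 5.98-fold lower at 24 h in each genotype. AT4G15390 read 2069, 1594 and 481 in lcbk1-2 and 1756, 1573 and 304 in the wild type. AT2G18980 read 1415, 1077 and 293 in lcbk1-2 and 1249, 1474 and 222 in the wild type. AT2G18980 had the widest gap between genotypes at 3 h, with -0.39 in lcbk1-2 and 0.24 in the wild type. AT2G44210, AT2G36950, AT2G35820, AT5G10770, AT1G56720, AT5G16650, AT4G02540, AT3G12710 and AT5G44680 completed the group, with signals of 388 to 2217 at 0 h in lcbk1-2 and 327 to 1575 in the wild type.

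Near the limits the membership turned on small differences. AT5G44680 (-0.48 at 3 h in lcbk1-2) and AT4G02540 (-0.43 at 3 h in the wild type) were just inside the lower limit at 3 h, with CSLA03 (-0.39) next, while AT2G44380 (-0.50), SKU5 (-0.53) and AT5G61340 (-0.54), each in lcbk1-2, were just outside. At the upper limit of 3 h the nearest members were AT4G33666 (0.40), AT4G24780 (0.39) and AT5G57785 (0.32), each in the wild type, and 0 genes that met the other limits lay beyond it. At 24 h AT4G02540 (-2.05 in the wild type), SFP1 (-2.05 in lcbk1-2) and AT2G36950 (-2.06 in lcbk1-2) were just inside. AT1G21920 (-1.98 in the wild type), AT5G27400 (-1.97 in the wild type) and AT3G14920 (-1.96 in lcbk1-2) were just outside.

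The comparison of lcbk1-2 with the wild type was not used to choose the genes, and it asks whether loss of the kinase goes with another level of these transcripts. Of the 26 genes, 0 passed in limma's genotype term shared by the 3 times, with a lowest adjusted p of 0.472. Over all 15654 features 1 was higher and 1 lower in lcbk1-2 (0.00639% each), both unnamed. At an unadjusted p under 0.05, 3 members were higher (AT5G44680, AT5G16030 and GT2) and 1 was lower (AT3G12710), 4 of 26, while 8.27% of all features were at that level. The members' median estimate was 0.07 on the log2 scale, with a range from -0.35 to 0.48, beside 0.01 over all tested features.

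AT5G44680 had the highest estimate (0.48, SE 0.14, adjusted p = 0.474). It read 2217, 1589.8 and 449.7 at 0 h, 3 h and 24 h in lcbk1-2, against 1493, 1401 and 281 in the wild type, and lcbk1-2 was brighter on each of the 3 pairs of arrays. AT5G16030 followed (0.46, SE 0.13, adjusted p = 0.472), with differences of 0.63, 0.54 and 0.21 at the 3 times. For AT4G33666 (0.34, SE 0.16, adjusted p = 0.634) the difference lay at 0 h (0.76) and was 0.26 at 3 h and 0.01 at 24 h, so its deeper decrease in lcbk1-2 came with a higher start and an equal end. AT3G12710 had the lowest estimate (-0.35, SE 0.13, adjusted p = 0.573), with 1060.1, 854 and 182 in lcbk1-2 against 1146, 1203 and 246 in the wild type. AT4G02540 (-0.22) and CSLA03 (-0.21) came next, and CSLA03 was dimmer in lcbk1-2 at each time.

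By single pairs of arrays, 17 of the 26 were brighter in lcbk1-2 at 0 h, 17 at 3 h and 17 at 24 h (65.4% each), and 11 were brighter at all 3 times while 3 were dimmer at all 3. Among the 8710 tested features with at least 264 at 0 h in both genotypes, 50.2%, 47.3% and 49.1% were brighter in lcbk1-2 at the 3 times. At 0 h 3 members were at least 0.5 higher in lcbk1-2 (AT4G33666, AT5G16030 and AT5G44680) and 0 at least 0.5 lower, beside 2.30% and 1.64% of these bright features. At 24 h 3 were at least 0.5 higher (AT5G44680, AT4G15390 and AT2G36950) and 1 lower (AT4G33660), beside 4.11% and 3.28%. With 1 array on each side these counts have no test, and the genes are not independent of each other.

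**Figure D5:**
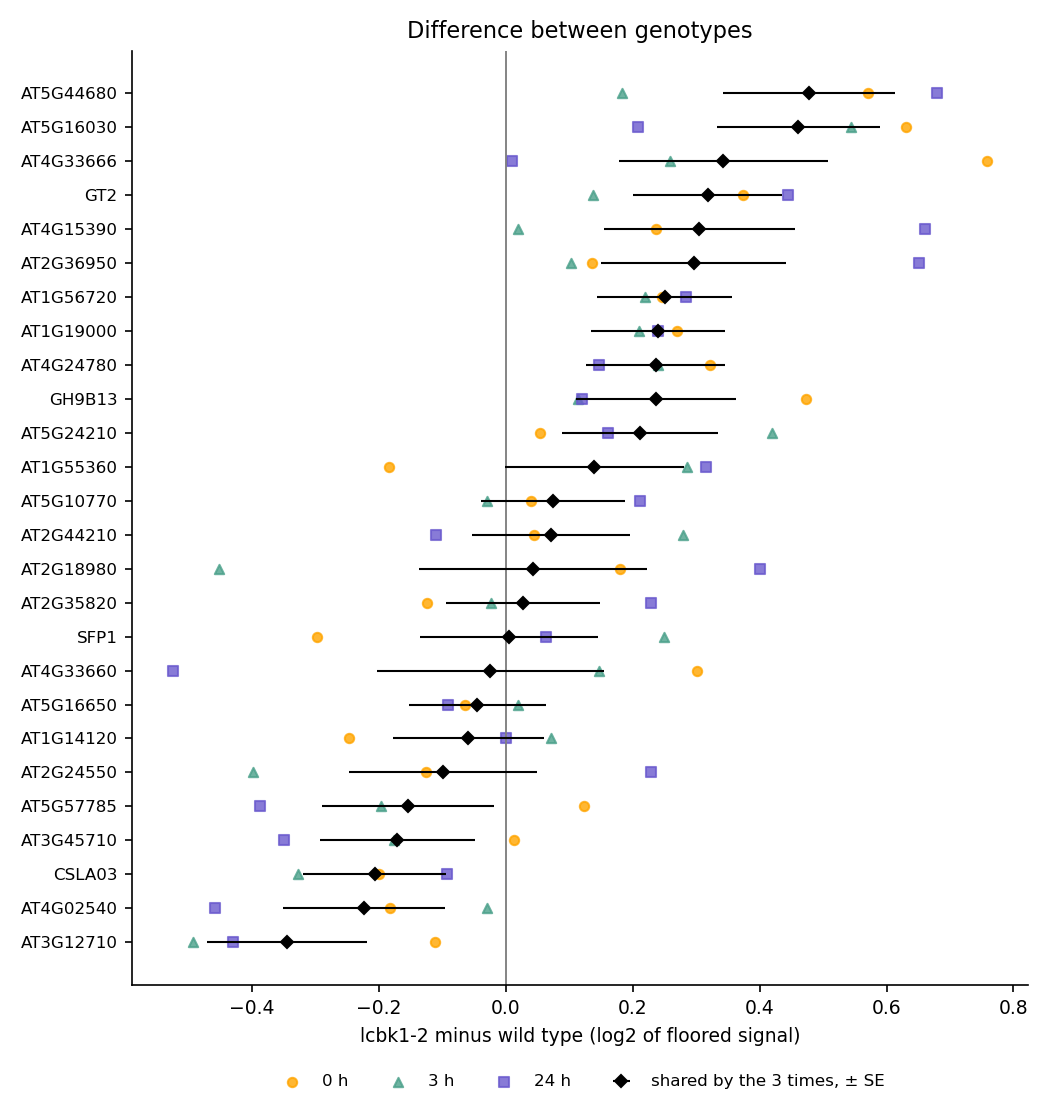
Difference of lcbk1-2 from the wild type (log2 of the floored signal) for each of the 26 genes at 0 h, 3 h and 24 h (coloured points, 1 array against 1) and the estimate shared by the 3 times with its SE (black diamonds and bars). Estimates run from 0.48 for AT5G44680 to -0.35 for AT3G12710, and 0 of them passed the adjusted test.

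The sizes of the decrease in the genotypes were limited to -2 or lower in both by the choice of genes, and are given as a description. The median change at 24 h was -2.47 in lcbk1-2 (range -4.12 to -2.05) and -2.51 in the wild type (range -3.37 to -2.05). Of the 23 members above the floor at 24 h in both genotypes, the decrease was deeper in lcbk1-2 for 10 and deeper in the wild type for 13. The gap between genotypes ran from -0.83 for AT4G33660 to 0.52 for AT2G36950, with a median of 0.05 and an SD over genes of 0.37, beside 0.34 over the 8710 bright features. For GH9B13, at the floor in the wild type, the order turned with the floor: at 66 the changes were -3.13 in lcbk1-2 and -2.77 in the wild type, and at 33 they were -3.13 and -3.32. Each gap rests on 1 array a value and was not tested.

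For contrast, 60 genes were at least 2-fold lower at 3 h and at least 4-fold lower at 24 h in both genotypes. Their median signal at 0 h was 1342 in lcbk1-2 and 1405 in the wild type, against which the 26 late genes had 1079 and 1082. At 24 h the 60 stood at medians of 134 and 140.1, and the late genes at 181 and 183. Their median change at 24 h was -2.96 in lcbk1-2 and -3.13 in the wild type. In the genotype term their median was -0.02, and 40.0% of the 60 were above 0, against 65.4% of the late genes. At 3 h 31.7% were brighter in lcbk1-2. The sets were defined by their changes, the genotype values of both rest on the same 6 arrays, and the difference between the sets was not tested.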

How the data were processed

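The authors deposited a linear intensity for every probe set on each array, computed with MAS5 per the submitters' processing notes, which give no version here. From the values, the 2% trimmed mean was close to 500 on all 6 arrays (499.75 to 499.77), the mark of scaling to 1 target value. Labelled target was made from 6 µg RNA, per the labels' protocols.

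Of 22810 features, 64 control probe sets were set aside. Of the other 22746, the platform annotation assigned 13513 to 1 gene (13436 matched in the RefSeq TAIR10.1 gene table), 503 to several and 8730 to none. The brightest probe set of each gene was kept (22589 features). Signals under 66 were set to 66 and log2 was taken. The 15654 features above 66 on at least 2 arrays were fitted with limma 3.58.1 in R 4.3.3 (additive terms for genotype and for time, empirical Bayes, two-sided), Benjamini-Hochberg adjustment over all features and a threshold of 0.05. The fit had 2 residual degrees of freedom (prior 4.19), so its SE holds array error together with any genotype-specific response, not replicate spread. The code of the fit was checked on simulated data with independent noise of equal SD in every feature. That setting lacks the floor and any genotype-specific response, so it does not show how the fit performs on these arrays.

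The 26 genes and all lists were chosen with earlier results of these data known. Genes were named by rule: the 15 deepest and the 8 brightest members, those with a symbol, those with the largest genotype differences, those nearest each limit and examples from the lists. The lists were matched by the start of words in symbols and synonyms, since the gene table holds no descriptions; of 8472 tested single-gene features 1208 have a symbol other than the locus. Promoter motifs were planned and are not analysed here. Alternatives were a lower floor (33) and a higher one, median scaling, quantile normalization, averaging probe sets, no filter, each array left out and the limits in 1 genotype alone.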

Additional observations from a re-analysis of the deposited data

Results flagged for a closer look

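For 8 of the 26 genes the change at 3 h went opposite ways in the genotypes, with 1 array for each value. The difference was not tested, and the share of opposite signs over all features was not counted. The change in lcbk1-2 minus that in the wild type was positive for SFP1 (0.55), AT1G55360 (0.47), AT5G24210 (0.37) and AT1G14120 (0.32). It was negative for AT2G18980 (-0.63), AT4G33666 (-0.50), AT3G12710 (-0.38) and GH9B13 (-0.36). All these changes lie within the band of -0.5 to 0.5 that chose the genes, and the SD of this gap over the 8710 bright features was 0.29.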

How the results depend on the processing

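The number of genes that met the limits was 26, and it was 18 to 28 under the 5 other floors, scalings and probe set rules, with 12 of the 26 inside under all of them: 28 with a floor of 33, 19 with the higher floor, 18 under median scaling, 21 under quantile normalization and 26 with probe sets averaged. With the limits in the wild type alone it was 56, and in lcbk1-2 alone 52. The members lost under median scaling lay near a limit, such as SFP1 (-1.86 at 24 h in lcbk1-2) and AT5G44680 (-0.54 at 3 h in lcbk1-2). With the higher floor both wall enzymes were lost, GH9B13 at -1.77 in the wild type and CSLA03 at -1.98 in lcbk1-2. Of the genes with a symbol, only GT2 stayed inside under all of these settings. The genotype term called 2 features; it called 1 with a floor of 33, and in limma 0 with the higher floor (1173 at an unadjusted p under 0.05) and 0 with no filter (1482). With any 1 array left out it called 0 (851 to 1062 unadjusted), and among the members it called 0 under every alternative run (1 to 5 unadjusted). The members' median genotype estimate stayed between 0.05 and 0.11. At 24 h 7494 features passed, 3585 with no filter, and with 1 array left out 3861 to 6566: 4257 without the wild-type 0 h array, 3861 without wild-type 24 h, 4098 without lcbk1-2 0 h and 3973 without lcbk1-2 24 h. Rises made up 3019 of 7494, and 4024 of 7289 under median scaling. At 3 h 2695 passed, 1658 with a floor of 33 and 120 with no filter. With 1 array left out this was 0 to 532: 24, 532 and 0 without the wild-type 0 h, 3 h and 24 h arrays and 3, 267 and 0 without those of lcbk1-2 (4854 unadjusted at each 0). Fits with 5 arrays have 1 residual degree of freedom. Signals at the floor limit the depth that can be read for GH9B13, AT3G45710 and AT1G14120. In total 6 members read under 100 at 24 h in both genotypes, among them CSLA03, AT5G24210 and AT1G56720. Each of those last genes left the set with the higher floor, as did AT5G24210 at -1.71 in lcbk1-2 and -1.66 in the wild type.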

Other observations

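The other lists, matched by words in symbols and synonyms, hold 0 of the 26 genes. This is no result about the members, since 22 of them have only a locus. The words also missed GT2, a DNA-binding protein, and SFP1, a sugar-porter-like protein. Over all tested single-gene features 29.0% fell and 19.0% rose at 24 h, and several lists below lie near or under these shares. Among all features 3265 fell and 4024 rose under median scaling, and with no filter 2039 of 22589 fell and 1546 rose. All 8 tested hormone genes fell at 24 h (median log2 change -1.0; 7 of 9 under median scaling, 7 of 12 with a floor of 33 and 4 of 15 with no filter), and 4 of them had fallen at 3 h. They were IAA29, IAA18, IAA30, GH3.9 and IAGLU of auxin signalling and metabolism, RTE1 and EIN3 of ethylene signalling and the brassinosteroid-responsive BRH1. IAA18 came nearest to the late course, at -0.07 at 3 h and -1.04 at 24 h (SE 0.15, adjusted p = 0.00241 in limma). Of 30 transcription factor genes 14 fell and 8 rose at 24 h (11 and 9 under median scaling, 7 and 6 of 38 with no filter), of 12 calcium and calmodulin genes 6 and 2, and of 21 cytochrome P450 and peroxidase genes 8 and 4. Of 17 cell division and cytoskeleton genes 6 fell and 2 rose, of 36 protein turnover genes 5 and 8, and of 15 photosynthesis and chlorophyll genes 2 and 3. Of 10 transporter genes 2 fell and 2 rose, of 9 kinases and receptors 2 and 2, of 4 glucosinolate and sulfur genes 2 and 1, and of 2 lipid genes 1 and 0. The 1 water channel gene did not pass, and the list of genes with no assigned function had 0 tested members.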
